A study of Danio rerio with 75 samples.

Results

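The genes described here are 10 genes of the lysosome in brain, liver and skin of ageing zebrafish (Danio rerio). They are cln3, asah1a, ctsba, ctsd, lamp2, hexa, hexb, gba, npc1 and tpp1, taken as the rows of the counts table that carry these symbols. All 10 were found among 32677 rows. Symbols were matched without regard to case. The row of gba is described in the table as glucosylceramidase-like. The row of hexb is described in the table as hexosaminidase A (alpha polypeptide), and the row of hexa has no descriptive name. The symbols of the table were kept, and which of these 2 rows holds which subunit is uncertain.

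The lysosome is the acidic organelle in which cells break down proteins, lipids and sugars that arrive by endocytosis, phagocytosis or autophagy. Its hydrolases are soluble enzymes that work at low pH, and its membrane proteins shield the membrane and carry the products out. In humans, loss of single lysosomal genes causes storage disorders, many of which damage the brain. Of the genes described here, ctsba and ctsd encode the proteases cathepsin B and cathepsin D, and tpp1 encodes tripeptidyl peptidase, which trims short peptides from protein ends. The genes asah1a, gba, hexa and hexb encode enzymes of sphingolipid breakdown, namely acid ceramidase, glucocerebrosidase and both subunits of beta-hexosaminidase. The protein of lamp2 is a major glycoprotein of the lysosomal membrane, npc1 encodes a membrane protein that moves cholesterol out of the lysosome, and the membrane protein of cln3 is the one lost in juvenile Batten disease in humans.

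RNA was sequenced from brain, liver and skin of male fish of the TüAB strain at 6, 12, 24, 36 and 42 months. The 73 libraries, from 40 fish or pools, form 15 groups of tissue and age. Liver has 4 libraries at 6 months and 4 at 12 months, and every other group has 5. The labels give the background of all fish as AB JxTu. They list no transgene at 6 and at 24 months, and they list Tg(flk:mCherry) at 12 months, Tg(pu.1:GFP) at 36 months and Tg(wt1a:GFP) at 42 months. Each reporter line thus occurs at a single age, so that age and line cannot be told apart except between 24 and 6 months. Each brain library of 6 months is a pool of 2 fish and all other libraries are single fish, so in brain a comparison with 6 months also compares single fish with pools. For 2 fish, those behind replicate 3 of skin at 6 months and replicate 5 of brain at 12 months, a further library carries the label of another line and of more than 1 tissue. These 2 further libraries were put in no group. Following the study, the mean of 36 and 42 months is called old and is set against 6 months.

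Brain libraries held 29006611 to 44324353 counts, liver libraries 31306947 to 58166358 and skin libraries 32925263 to 48935972. Marker levels are given as summed CPM (counts scaled to library size with edgeR's trimmed mean of M-values). Brain markers were at 13152 to 24744 CPM in brain, against at most 589 in liver and 349 in skin. Skin markers were at 35229 to 76743 CPM in skin, against at most 2032 in brain and 5710 in liver. Liver markers reached 5284 CPM in brain, at 12 months, and 9535 CPM in skin, at 24 months. Pancreas markers reached 1565 CPM in brain and 1727 CPM in skin. Liver libraries were uneven. In 10 of the 23, summed markers of intestine were at 2122 to 53353 CPM, against 331 to 1590 CPM in the other 13, and liver markers ranged from 5832 to 261602 CPM over all 23. The liver libraries rich in intestine RNA were all 4 of 12 months, 2 of 6 months, 1 of 24 months, 2 of 36 months and 1 of 42 months. Of these, 12 months replicate 4 lay close to the limit of 2000 CPM, at 2122 CPM, and the next was at 12194 CPM. Pancreas RNA was uneven as well. Its summed markers were at 820 to 82654 CPM in the 10 libraries and at 32.4 to 191028 CPM in the other 13. The highest value was that of 36 months replicate 1. These are bulk samples, in which fewer cells of a type and less RNA per cell cannot be told apart.

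Per length of transcript, cathepsin D, cathepsin B and lamp2 had the highest mean levels of the 10 in every tissue. In brain the order by RPKM (reads scaled by transcript length and library size, as deposited) was ctsd at 65.4 ± 4.01, lamp2 at 50.3 ± 4.75, ctsba at 37.8 ± 7.94, hexb at 18.8 ± 3.02 and npc1 at 14.2 ± 1.16 (SD, n = 25). Below these came cln3 at 7.96 ± 1.26, hexa at 7.66 ± 3.04, gba at 6.64 ± 1.11 and asah1a at 6.35 ± 1.22 RPKM, which overlapped with each other within 1 SD. The lowest was tpp1 at 3.92 ± 0.849 RPKM. The gene ctsd was the highest in all 25 brain libraries, and tpp1 was below asah1a in all 25.

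In liver the levels were more variable. The order was ctsd at 77 ± 38.1, ctsba at 60.3 ± 30.8, lamp2 at 44.8 ± 18.7, npc1 at 30 ± 17.1, hexb at 27 ± 30.2 and tpp1 at 19 ± 7.88 RPKM (SD, n = 23), followed by hexa at 6.97 ± 3.74, gba at 5.59 ± 3.26, cln3 at 4.94 ± 1.28 and asah1a at 2.59 ± 1.52 RPKM. The step between tpp1 and hexa, with tpp1 higher in 23 of 23 libraries, was the only one between neighbours whose means ± 1 SD did not overlap. In skin ctsba led at 88.6 ± 41.8, followed by lamp2 at 72.4 ± 8.6, ctsd at 51 ± 26.7, hexb at 24.1 ± 7.14, tpp1 at 23.6 ± 5.64 and npc1 at 17 ± 3.43 RPKM (SD, n = 25). The others were hexa at 6.38 ± 1.64, asah1a at 5.93 ± 1.49, cln3 at 4.94 ± 1.05 and gba at 4.17 ± 1.21 RPKM, and the step between npc1 and hexa, seen in 25 of 25 libraries, was the only one without overlap. The member whose place differed most was tpp1, which ranked 9 or 10 in brain and between 4 and 6 in liver and skin. The lowest raw counts behind these levels were 179 for tpp1 in a brain library, 57 for asah1a in a liver library and 174 for gba in a skin library.

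**Figure D1:**
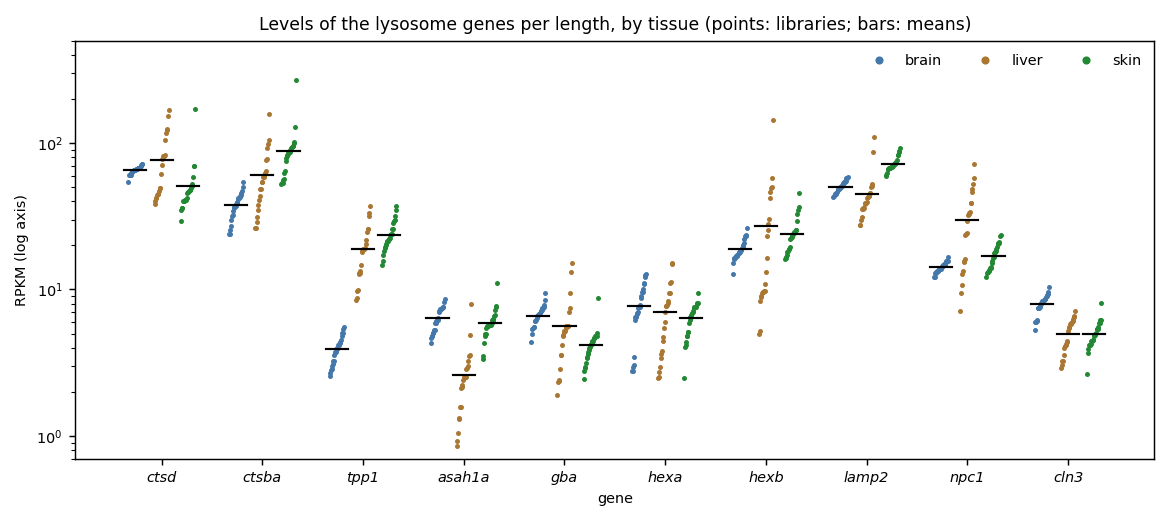
RPKM (log axis) of each of the 10 lysosome genes in brain, liver and skin; points are libraries (25 brain, 23 liver, 25 skin) and bars are means over all ages. The protease gene tpp1 sits at 3.92 RPKM in brain, against 19 RPKM in liver and 23.6 RPKM in skin. In liver hexb spans 4.95 to 143 RPKM and npc1 7.09 to 71.8 RPKM.

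In brain 6 of the 10 genes were higher in old fish than at 6 months and none was lower: asah1a, cln3, ctsba, hexb, lamp2 and tpp1. They include proteases, sphingolipid hydrolases and membrane proteins alike. Genes were called at a Benjamini-Hochberg adjusted p under 0.05 by edgeR's quasi-likelihood test over 23028 genes, by which 8.97% of all genes were called higher in this comparison and 10.6% lower. The median log2 fold change of the 10 genes was 0.24, against -0.01 for all genes tested.

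The membrane protein gene cln3 had the smallest adjusted p. Its brain levels were 11.3, 11.7, 11.4, 11.3 and 9.62 CPM at 6 months, 14.7, 16.3, 15.9, 14.8 and 15.3 CPM at 12 months, 15.8, 15.6, 15.9, 14.8 and 13.9 CPM at 24 months, 19.2, 17.1, 16.3, 16.8 and 17.4 CPM at 36 months, and 15.6, 14.6, 17.1, 14.4 and 15.9 CPM at 42 months. Every single fish of 12 months or older was above every pool of 6 months. The share of all genes separated in this way is not given, here or for the genes below. Old over 6 months gave a log2 fold change of 0.57 ± 0.06 (SE), with means of 16.5 ± 1.43 CPM in old brain and 11 ± 0.816 CPM at 6 months (SD, n = 10 and 5, edgeR adjusted p = 2.16e-06).

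The acid ceramidase gene asah1a was also above 6 months at every later age. Its levels were 8.19, 8.63, 8.0, 7.36 and 7.90 CPM at 6 months, 10.6, 12.2, 12.8, 13.0 and 12.5 CPM at 12 months, 10.3, 9.32, 10.6, 9.16 and 9.37 CPM at 24 months, 12.8, 13.2, 13.8, 13.0 and 12.7 CPM at 36 months, and 12.6, 10.8, 12.3, 8.83 and 10.8 CPM at 42 months. Again no library of a later age fell within the range of 6 months, and the library nearest to it was 1 fish of 42 months at 8.83 CPM. The log2 fold change of old over 6 months was 0.58 ± 0.08 (SE, edgeR adjusted p = 2.16e-05), with means of 12.1 ± 1.5 CPM in old brain and 8.02 ± 0.462 CPM at 6 months (SD, n = 10 and 5).

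Cathepsin B was higher in old brain without overlap. The ctsba levels were 117.4, 96.3, 98.5, 108.3 and 100.3 CPM at 36 months and 98.96, 96.2, 106.7, 96.3 and 127 CPM at 42 months, against 85.6, 70.8, 64.2, 75.6 and 88.7 CPM at 6 months. The fold change was 0.44 ± 0.13 on the log2 scale (SE, edgeR adjusted p = 0.0188). At 24 months ctsba was at 53.0 to 91.8 CPM and spanned the range of 6 months.

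For the other 3 genes called in old brain the groups overlapped. For lamp2, the membrane glycoprotein, levels were 141 to 173 CPM at 36 months and 177 to 187 CPM at 42 months, against 137.3 to 152.8 CPM at 6 months, with 8 of 10 old libraries above all of 6 months (log2 fold change 0.22 ± 0.05, SE, edgeR adjusted p = 0.00293). For hexb, a subunit of beta-hexosaminidase, levels were 51.5 to 56.9 CPM at 36 months and 41.9 to 49.5 CPM at 42 months, against 38.1 to 44.6 CPM at 6 months (0.25 ± 0.08, SE, edgeR adjusted p = 0.037). For tpp1 they were 9.06 to 12.2 CPM at 36 months and 7.24 to 10.48 CPM at 42 months, against 6.17 to 9.78 CPM at 6 months (0.41 ± 0.13, SE, edgeR adjusted p = 0.0314). The call of hexb was lost without 6 months replicate 3, 4 or 5, at log2 fold changes of 0.26, 0.24 and 0.28 (edgeR adjusted p = 0.0613, 0.08 and 0.052). That of tpp1 was lost without 6 months replicate 2, 3 or 4, at log2 fold changes of 0.40, 0.36 and 0.38 (edgeR adjusted p = 0.0658, 0.0806 and 0.0738).

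The remaining 4 genes were not called in old brain. Cathepsin D had 140.0 ± 8.68 CPM in old brain and 128.2 ± 9.04 CPM at 6 months (SD, n = 10 and 5, log2 fold change 0.13 ± 0.05, SE, edgeR adjusted p = 0.0726). The log2 fold changes of gba, the glucocerebrosidase gene, and of npc1, the cholesterol transporter gene, were 0.07 and 0.03, with adjusted p-values of 0.624 and 0.748. For hexa the log2 fold change was -0.06 ± 0.29 (SE), with the largest standard error of the 10.

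**Figure D2:**
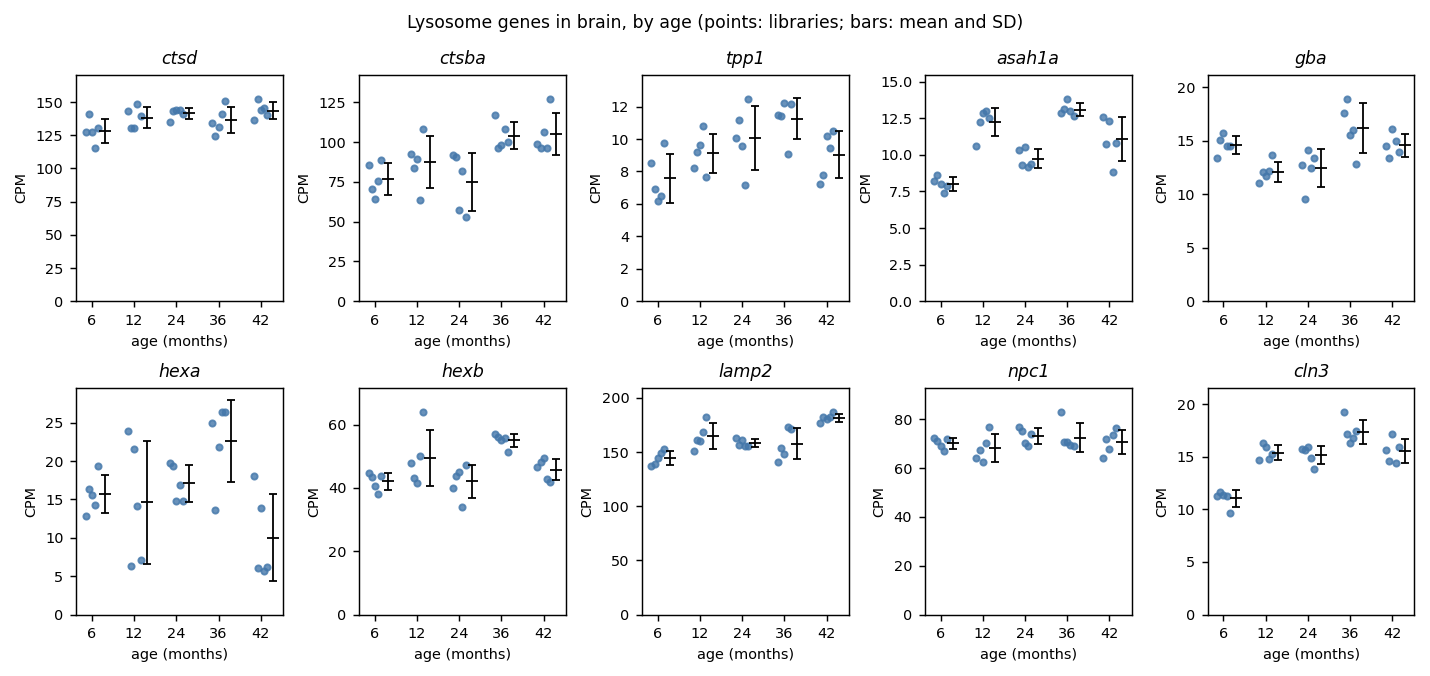
CPM of each of the 10 genes in brain (y axis, from 0) at 6, 12, 24, 36 and 42 months (x axis); points are libraries and bars are the means of 5 libraries. All 20 libraries of 12 months and older lie above the 5 pools of 6 months for cln3 and asah1a, while hexa splits into 5 libraries at 5.71 to 7.11 CPM and 20 at 12.8 to 26.4 CPM. The share of all genes separated like cln3 and asah1a is not given.

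The differences of cln3 and asah1a from 6 months were present at each later age. At 12 months, cln3, asah1a and lamp2 were higher than at 6 months, with log2 fold changes of 0.48 ± 0.07, 0.61 ± 0.09 and 0.19 ± 0.06 (SE, edgeR adjusted p = 0.000164, 0.000133 and 0.0269), where 8.57% of all genes were called higher. At 24 months, where no line change is listed, cln3 and asah1a were higher than at 6 months by 0.46 ± 0.07 and 0.28 ± 0.09 (SE, edgeR adjusted p = 0.000139 and 0.0307), against 6.83% of all genes. The call of asah1a at 24 months was lost without 24 months replicate 3 or without 6 months replicate 1 or 4, at adjusted p-values of 0.05 to 0.052. At 36 months 5 of the 10 genes were higher than at 6 months, where 13.6% of all genes were, and at 42 months 3 were, where 4.47% of all genes were.

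Old brain was also set against 12 months, where all libraries are single fish. Of the 10 genes only gba was called between old and 12 months in brain, with 15.4 ± 1.9 CPM in old brain and 12.1 ± 0.944 CPM at 12 months (SD, n = 10 and 5, log2 fold change 0.34 ± 0.09, SE, edgeR adjusted p = 0.0171), where 4.31% of all genes were called higher. The log2 fold change of asah1a in this comparison was -0.03. After removal of age means, gba had a correlation of -0.67 with summed intestine markers over the 25 brain libraries. These markers were at 30.4 to 419.7 CPM in brain, and their part in the gba difference was not tested. Between 42 and 12 months, both single fish, 0 of 10 genes were called by edgeR, DESeq2 or limma voom, where edgeR called 12.9% of all genes. By edgeR 2 of 10 had an unadjusted p under 0.05, for which the share of all genes is not given here. The log2 fold changes of cln3 and asah1a there were 0.01 ± 0.07 and -0.15 ± 0.08 (SE).

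The 2 oldest ages differed from each other. Between 42 and 36 months, asah1a, hexa and hexb were lower at 42 months and lamp2 was higher, where 10.8% of all genes were called lower and 12% higher. For lamp2 the means were 182 ± 3.69 CPM at 42 months and 158 ± 14.2 CPM at 36 months (SD, n = 5 each, log2 fold change 0.20 ± 0.06, SE, edgeR adjusted p = 0.0117). For hexb they were 45.7 ± 3.3 CPM at 42 months and 55 ± 2.1 CPM at 36 months (-0.27 ± 0.10, SE, edgeR adjusted p = 0.0471), and for asah1a 11.1 ± 1.5 and 13.1 ± 0.453 CPM (-0.24 ± 0.08, SE, edgeR adjusted p = 0.041). In none of these 3 genes did the ages overlap. The share of all genes without overlap is not given for this or the other comparisons. Each of the 3 calls was lost without some single library, with edgeR adjusted p-values up to 0.0852 for lamp2 (without 36 months replicate 1), 0.0819 for hexb (without 42 months replicate 5) and 0.0809 for asah1a (without 42 months replicate 4).

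The split of hexa in brain was not by age alone. Its brain levels were 12.8, 16.4, 15.5, 14.3 and 19.3 CPM at 6 months, 23.9, 6.37, 21.5, 14.2 and 7.11 CPM at 12 months, 19.8, 19.3, 14.8, 16.9 and 14.7 CPM at 24 months, 25.0, 13.6, 21.8, 26.4 and 26.4 CPM at 36 months, and 18.1, 6.04, 13.9, 5.71 and 6.26 CPM at 42 months. Thus 5 of the 25 libraries were at 5.71 to 7.11 CPM, 2 of them of 12 months and 3 of 42 months, and the other 20 were at 12.8 to 26.4 CPM. The fitted difference of 42 from 36 months was -1.18 ± 0.34 (log2, SE, edgeR adjusted p = 0.0156), with means of 10 ± 5.67 CPM at 42 months and 22.6 ± 5.38 CPM at 36 months (SD, n = 5 each).

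Markers of phagocytes were measured beside these genes, since microglia and macrophages are rich in lysosomes. Of 25 macrophage and microglia markers tested in brain, 9 were higher in old brain than at 6 months and none lower, where 8.97% of all genes were called higher and 10.6% lower. Their summed level was 1071 to 2823 CPM (median 1438) in old brain and 1052 to 1873 CPM (median 1320) at 6 months. A few abundant genes led this sum in brain, with means of 523.5 CPM for cd74a, 326.4 for apoeb and 170.4 for lgals3bpb. The means of mpeg1 and csf1ra were 40.1 and 21.1 CPM, so the sum mainly follows the abundant genes. The sum did not rise steadily with age. Its median was 1627 CPM at 12 months, 1971 CPM at 24 months, 1238 CPM at 36 months and 1615 CPM at 42 months. Of 12 neutrophil markers, 3 were higher, with sums of 69.9 to 169 CPM in old brain and 62.7 to 79.8 CPM at 6 months. The macrophage marker c1qc was at 0 in every brain library. The summed markers of brain itself were 15798 to 21386 CPM at 36 months and 13152 to 19444 CPM at 42 months, against 20659 to 24409 CPM at 6 months, so that 9 of 10 old libraries lay below every pool. After removal of the mean of each age, the correlation with the macrophage sum over the 25 brain libraries was 0.64 for ctsba, 0.49 for npc1 and 0.41 for tpp1, and 0.13 for cln3 and -0.06 for asah1a. These are descriptions over libraries that differ in depth and share a line within an age, and the part of phagocytes or of the brain markers in these differences was not tested.

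In liver no age comparison gave a call. Of the 10 genes 0 were called between old and 6 months by edgeR, and 0 by DESeq2 or limma voom, where edgeR called 0.19% of all genes. The share of all genes at an unadjusted p under 0.05 is not given here. Of the 10 genes, 4 had an unadjusted p under 0.05 by edgeR, all with higher levels in old liver. These were tpp1 at 50.1 ± 13.1 CPM in old liver and 32 ± 3.18 CPM at 6 months, ctsba at 173.9 ± 72.1 and 102.5 ± 15.6 CPM, gba at 13.4 ± 5.29 and 7.89 ± 2.01 CPM, and cln3 at 11.1 ± 2.38 and 8.21 ± 0.751 CPM (SD, n = 10 and 4). Their log2 fold changes were 0.64 ± 0.26, 0.76 ± 0.35, 0.76 ± 0.36 and 0.44 ± 0.18 (SE), with edgeR adjusted p-values of 0.272 to 0.349. Summed pancreas markers had a median of 9839 CPM in old liver and 447 CPM at 6 months. The part of pancreas RNA in these differences was not tested. At 24 over 6 months, 42 over 12 months and 42 over 36 months edgeR, DESeq2 and limma voom again called 0 of 10 genes, where edgeR called 3.55%, 0.00475% and 0.181% of all genes. By edgeR 0, 1 and 0 of 10 had an unadjusted p under 0.05, again without the share of all genes.

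**Figure D3:**
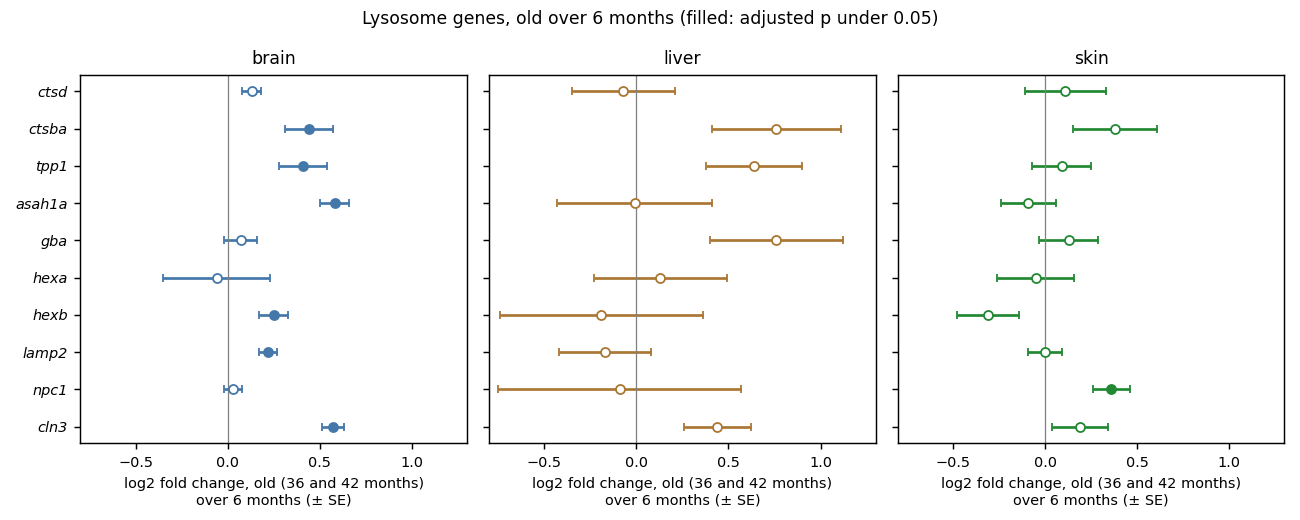
Log2 fold change of old (36 and 42 months) over 6 months (x axis, ± SE of the fit) for the 10 genes (y axis) in brain, liver and skin; filled points have an adjusted p under 0.05. Of the 10 genes 6 are called in brain, 0 in liver and 1, npc1, in skin, and the standard errors are widest in liver, up to 0.66 for npc1.

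The spread in liver went with its content of intestine RNA for some of the genes. The level of npc1 was 25.3 to 256 CPM (median 66.3) in the 10 libraries rich in intestine markers and 98.9 to 395 CPM (median 226) in the other 13. The 256 CPM were those of 12 months replicate 4, the library close to the limit. The level of hexb was 32.9 to 336 CPM (median 83.5) in the 10 and 18.2 to 60.1 CPM (median 28.3) in the 13, and the 32.9 CPM were again those of 12 months replicate 4. For cln3, asah1a and ctsba the medians were closer, at 8.6, 3.34 and 128 CPM in the 10 and 9.07, 3.77 and 132.9 CPM in the 13. Without the 10 libraries, which leaves none of 12 months and 2 of 6 months, edgeR still called 0 of 10 genes between old and 6 months, where 0.248% of all genes were called.

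**Figure D4:**
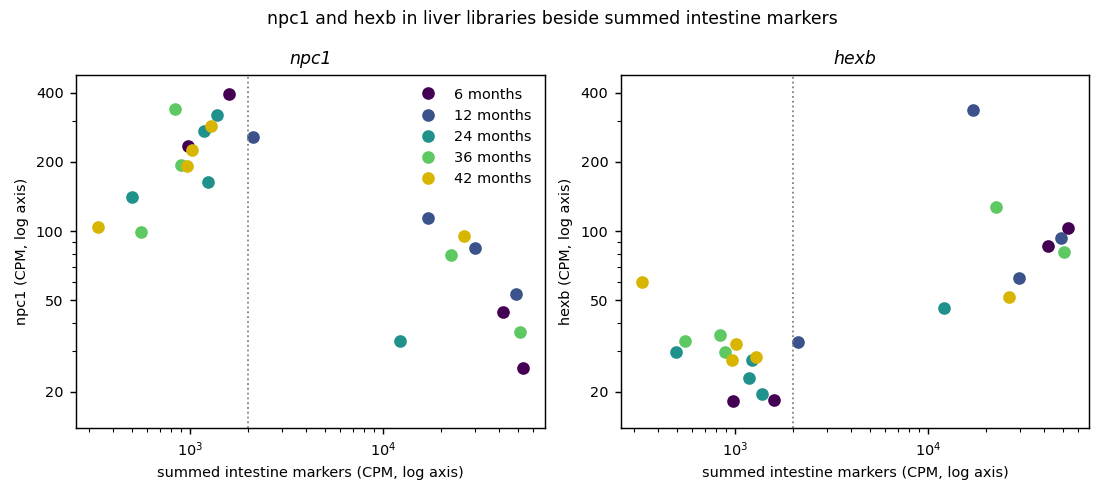
CPM of npc1 and hexb (y axes, log) in the 23 liver libraries beside the summed CPM of intestine markers (x axis, log), coloured by age; the dotted line is at 2000 CPM. To the right of the line npc1 has a median of 66.3 CPM and hexb of 83.5 CPM, against 226 and 28.3 CPM to the left.

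Single liver libraries stood apart as well. Liver 12 months replicate 2 had 336 CPM of hexb, 334 CPM of lamp2, 84.2 CPM of tpp1, 30.4 CPM of gba and 12.8 CPM of asah1a, all the highest of the 23 libraries. The same library had 3688 CPM of ctsl.1, a cathepsin L gene, where the other 22 had 0 to 60.4 CPM, and 2520 CPM of lgmn, the lysosomal protease legumain, where the others had 36.8 to 448 CPM. Liver 42 months replicate 1 had 324 CPM of ctsba and 306 CPM of ctsd, where the other 4 libraries of 42 months had at most 159 and 153 CPM.

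In skin npc1 was the single gene of the 10 that was called between old and 6 months. Its levels were 83.5, 83.8, 87.0, 96.8 and 121.4 CPM at 36 months and 90.5, 82.1, 88.2, 81.0 and 110.7 CPM at 42 months, against 63.2, 64.9, 85.8, 76.7 and 70.2 CPM at 6 months. The groups overlapped only through the 1 library of 6 months at 85.8 CPM. The log2 fold change was 0.36 ± 0.10 (SE, edgeR adjusted p = 0.0193), where 7.81% of all genes were called higher, and it was 0.29 with an adjusted p of 0.0721 without 6 months replicate 1, and lost its call likewise without replicate 2 (0.31, adjusted p = 0.0653) or 5 (0.33, adjusted p = 0.0667). Against 12 months the old skin was also higher in npc1, without overlap, at 92.5 ± 13.5 CPM in old skin and 71.4 ± 3.56 CPM at 12 months (SD, n = 10 and 5, log2 fold change 0.37 ± 0.10, SE, edgeR adjusted p = 0.00933), where 13.4% of all genes were called higher. The other gene called there was gba, with overlap, at 9.89 ± 2.2 CPM in old skin and 7.26 ± 1.31 CPM at 12 months (SD, n = 10 and 5, log2 fold change 0.44 ± 0.16, SE, edgeR adjusted p = 0.0449).

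Between 24 and 6 months, the comparison without a listed change of line, hexb was lower in skin and npc1 was higher. The hexb levels were 37.5, 45.1, 45.8, 35.5 and 55.0 CPM at 24 months, against 56.1, 98.1, 67.3, 69.6 and 89.7 CPM at 6 months. No library of 24 months reached the lowest of 6 months. The log2 fold change was -0.80 ± 0.20 (SE, edgeR adjusted p = 0.00784), where 9.49% of all genes were called lower. For npc1 the means were 95 ± 8.8 CPM at 24 months and 72.2 ± 9.26 CPM at 6 months (SD, n = 5 each, log2 fold change 0.40 ± 0.11, SE, edgeR adjusted p = 0.0174), where 10.7% of all genes were called higher, and this call was lost without 24 months replicate 3 or 6 months replicate 1 (adjusted p = 0.0558 and 0.0556). At 36 and 42 months hexb was at 42.6 to 79.6 and 54.4 to 97.7 CPM, and old against 6 months it was not called (-0.31 ± 0.17, SE, edgeR adjusted p = 0.231).

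Cathepsin D was higher in skin at 42 than at 36 months, with 307, 91.5, 104, 94.8 and 136.7 CPM at 42 months, against 63.1, 81.4, 95.9, 74.1 and 89.9 CPM at 36 months. Replicate 1 of 42 months was far above the other 4. The log2 fold change was 0.86 ± 0.25 (SE, edgeR adjusted p = 0.0339), where 4.98% of all genes were called higher, and it was 0.43 with an adjusted p of 0.134 without 42 months replicate 1. The call was also lost without 36 months replicate 1 or 4 (adjusted p = 0.077 and 0.0643). Between 42 and 12 months in skin edgeR called 0 of 10 genes and DESeq2 2, where edgeR called 12.7% of all genes. By edgeR 2 of 10 had an unadjusted p under 0.05, for which the share of all genes is not given here.

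Skin 42 months replicate 1 and liver 42 months replicate 1 came from the same fish, and both were high in cathepsins. In skin this fish had 545 CPM of ctsba and 307 CPM of ctsd, where the other 4 skin libraries of 42 months had 196 to 284 and 91.5 to 136.7 CPM. Its summed neutrophil markers were 1589 CPM in skin, against 112.1 to 778.8 CPM in the other 4, and 700 CPM in liver, against 18.8 to 96.2 CPM in the other 4. Its summed macrophage markers were 5955 CPM in skin, within the range of the others, and 4689 CPM in liver, above them. In skin the macrophage sum was led by cd74a, apoeb and cd74b, with means of 1675, 1366 and 863.2 CPM. In liver it was led by apoeb, with a mean of 1663 CPM. Over all skin libraries 7 of 13 neutrophil markers and 5 of 25 macrophage markers were higher in old skin than at 6 months and none lower, where 7.81% of all genes were called higher and 7.32% lower. Skeletal muscle markers in skin ranged from 2720 to 64118 CPM. Their median was 27406 CPM at 6 months, 25425 CPM at 12 months and 9462 CPM in old skin. The correlation of lamp2 with them over the 25 libraries, after removal of age means, was -0.75. For npc1 it was -0.37 with the muscle markers and 0.53 with the macrophage sum. The part of these cell types in the skin differences was not tested.

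Levels were then compared between tissues, as means over the 5 ages in a fit of all 73 libraries. The largest differences were those of tpp1, which was lower in brain than in liver and in skin. The directions of several genes depend on how libraries of different tissues are scaled, because the normalization factors (1.41 to 1.64 for brain libraries, 1.02 to 1.32 for skin, 0.346 to 0.9 for liver) differed between tissues. Scaling to total counts alone moved the median of all genes to 1.40 for brain over liver, 0.42 for brain over skin and -0.98 for liver over skin, against -0.03, -0.04 and -0.00 with the factors. With total counts 77.6%, 61.5% and 16.9% of the called genes were higher, against 49.3%, 49.2% and 50.2% with the factors.

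Brain was lower than liver in 9 of the 10 genes with the factors, where 43.1% of all genes were called lower, and 3 of these kept direction and call under both scalings. For tpp1 the log2 difference was -3.69 ± 0.10 (SE) with the factors and -2.26 with total counts, for npc1 -2.68 ± 0.20 and -1.01, and for ctsba -2.08 ± 0.13 and -0.64. The direction turned for asah1a (-0.17, and 1.3 with total counts), cln3 (-0.78 and 0.69), gba (-1.15 and 0.27), hexa (-1.31 and 0.09) and lamp2 (-1.29 and 0.18). Brain was lower than skin in 6 genes and higher in 2 with the factors, where 42.4% and 41% of all genes were called. Under both scalings tpp1 (-3.05 ± 0.10, and -2.60 with total counts), ctsba (-1.65 ± 0.12 and -1.20) and lamp2 (-0.98 ± 0.07 and -0.53) were lower in brain than in skin, and cln3 (0.23 ± 0.07 and 0.68) and gba (0.23 ± 0.11 and 0.68) were higher. The edgeR adjusted p of gba with the factors was 0.0499. The direction turned for asah1a (-0.36, and 0.09 with total counts), hexa (-0.23 and 0.22) and ctsd (-0.04 and 0.40), of which hexa and ctsd were not called with the factors.

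Liver was higher than skin in 9 genes with the factors, where 36.9% of all genes were called higher. Under both scalings npc1 (1.98 ± 0.19, SE, and 0.77 with total counts), ctsd (1.59 ± 0.10 and 0.64) and gba (1.38 ± 0.11 and 0.41) were higher in liver than in skin. The direction turned for ctsba (0.43, and -0.56 with total counts), lamp2 (0.31 and -0.70), tpp1 (0.64 and -0.33) and cln3 (1.01 and -0.01). The hexb difference of liver from skin, 0.94 ± 0.17 (SE), was -0.07 without the liver libraries rich in intestine RNA. That second value is a mean over 6, 24, 36 and 42 months, since no liver library of 12 months was left. With all libraries the difference was 2.17 at 12 months alone, and 0.62, 0.45, 1.15 and 0.31 at 6, 24, 36 and 42 months. The part of the missing age in the change was not tested.

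Whether the difference of old from 6 months itself differed between tissues was tested as an interaction. No gene of the 10 passed in any pair of tissues by edgeR or limma voom, where edgeR called 4.7% of all genes for brain minus liver, 0.931% for brain minus skin and 2.93% for liver minus skin. In each pair 2 of 10 had an unadjusted p under 0.05 by edgeR, for which the share of all genes is not given here. For cln3 the brain change minus the skin change was 0.39 with a 95% interval of 0.03 to 0.74, and for asah1a it was 0.67 with an interval of 0.02 to 1.33, at edgeR adjusted p-values of 0.409 and 0.468. The calls made in brain and not in skin are therefore not shown to differ between these tissues. Without the liver libraries rich in intestine RNA, gba (-1.07, edgeR adjusted p = 0.0222) and lamp2 (0.52, edgeR adjusted p = 0.0128) were called for brain minus liver, where 16.4% of all genes were. For liver minus skin gba (1.01), hexb (1.28) and npc1 (-0.93) were then called, where 12.9% of all genes were, with 2 liver libraries left at 6 months.

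Where a fish gave more than 1 tissue, its deviations from the mean of its age were compared between tissues. Of 30 relations, 10 genes in 3 pairs of tissues, 3 passed at 0.05 after adjustment. Fish were permuted over all ages and not within an age, so the p-values treat the ages as alike in spread. For hexa in brain the SD was 55% of the mean at 12 months and 14% at 24 months. For hexa the deviations in brain and skin went together over 15 fish, with a Pearson r of 0.85 (permutation p = 6e-05, adjusted p = 0.0018) and a Spearman rho of 0.82 (permutation p = 0.00031, adjusted p = 0.0093). It was 0.80 without the 2 fish farthest from the median in brain and 0.86 over the 13 single fish. As an example, the fish with 6.37 CPM of hexa in brain had 5.34 CPM in skin, the lowest of the 25 skin libraries. Of 8439 other genes 0.64% reached an r as high in these fish, and their median r was 0.20.

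For ctsba the deviations in brain and liver went together over 11 fish, with an r of 0.81 (permutation p = 0.0027, adjusted p = 0.027) and a rho of 0.86 (permutation p = 0.0011, adjusted p = 0.016), and with an r of 0.84 without the 2 farthest fish. In these fish 1.17% of 6165 other genes reached that r, at a median of 0.17. In liver and skin the r of ctsba over 17 fish was 0.68 (permutation p = 0.0025, adjusted p = 0.027) and the rho 0.67 (permutation p = 0.0042, adjusted p = 0.042), with an r of 0.48 without the 2 farthest fish, and 4.95% of 6465 other genes reached that r. Brain and skin gave an r of 0.58 for ctsba over 15 fish (permutation p = 0.025, adjusted p = 0.11). The lowest of the 30 was npc1 in brain and skin, with an r of -0.66 over 15 fish (permutation p = 0.0096, adjusted p = 0.072). For cln3 and asah1a no pair of tissues gave an r above 0.38.

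**Figure D5:**
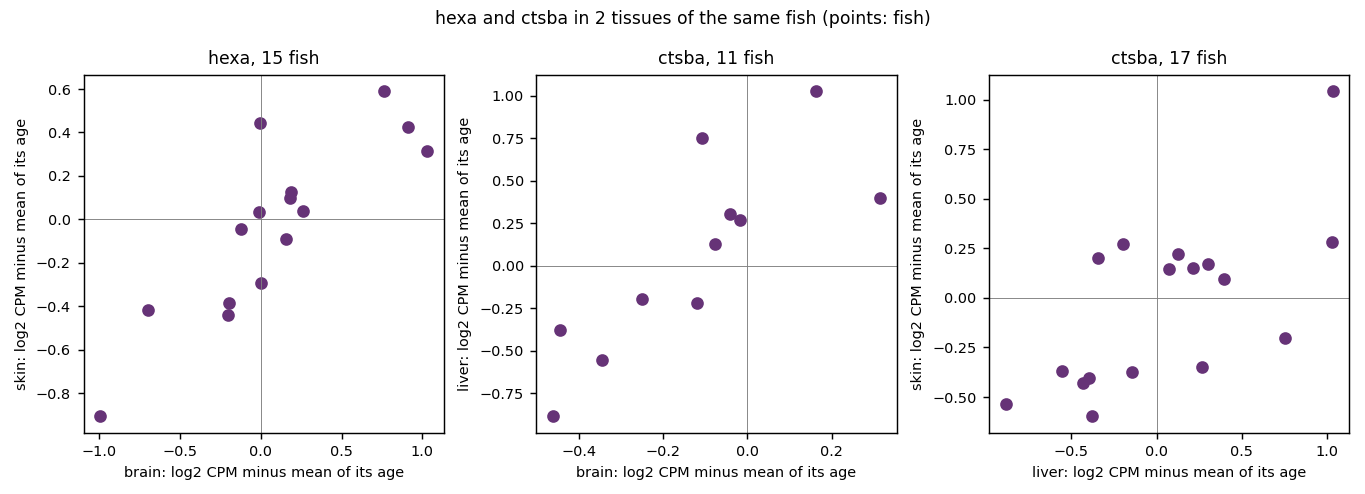
Deviation of log2 CPM from the mean of its age in one tissue (x axis) and another (y axis) of the same fish; points are fish. The hexa points of brain and skin (15 fish) lie along a rising line with r = 0.85, as do those of ctsba in brain and liver (11 fish, r = 0.81).

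How the 10 genes varied with each other differed by pair. Over the 45 pairs, the correlation of deviations from age means was positive in 25 pairs in brain, 28 in liver and 37 in skin. It had a median of 0.04 in brain (-0.48 to 0.44, 25 libraries), 0.13 in liver (-0.73 to 0.70, 23 libraries) and 0.28 in skin (-0.35 to 0.69, 25 libraries). The highest pair was ctsba with ctsd in both liver and skin, and the lowest in liver was hexb with npc1. The fish of 42 months replicate 1 was far above its group in ctsba and ctsd in both tissues. The correlations without this fish are not given here. Genes whose deviations were most like the mean of the 10 were named from those whose symbol holds no colon, point or bracket. Their r values were picked as the highest and carry no p-value. In brain they were CLCC1, rad17, scpep1 and gnptg (r = 0.68 each), with 12192 genes compared, including those with other symbols. In liver they were glb1 (0.86), galca (0.83), gm2a (0.81), lgmn (0.80) and cpvl (0.80) of 7332, and in skin rnaseka (0.90), mospd2, mpeg1, gabarapa and asah1b (0.85 each) of 10597. Liver 12 months replicate 2 was the highest of the 23 libraries in hexb, lamp2, tpp1, gba and asah1a. It had 2520 CPM of lgmn, where the others had 36.8 to 448 CPM, and the r values without it are not given here. In liver glb1, galca and gm2a encode the lysosomal beta-galactosidase, galactosylceramidase and GM2 activator, in brain gnptg encodes a subunit of the enzyme that tags hydrolases for the lysosome, and in skin mpeg1 is a marker of macrophages.

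Other genes of the lysosome gave the setting for these 10. Of 128 other lysosome genes tested in brain, 30 (23.4%) were higher in old brain than at 6 months and 3 (2.34%) lower, with a median log2 fold change of 0.11, against 8.97% and 10.6% of all genes and a median of -0.01. Among them 18 of 65 hydrolases and activators were higher and 0 lower, 12 of 43 membrane and transport proteins were higher and 3 lower, and of the 20 subunits of the v-ATPase, the proton pump that acidifies the lysosome, 0 were called in either direction. These are counts of rows, and the 43 rows hold 41 genes. The 3 lower rows include scarb2 under 2 gene IDs. Here and below, old brain against 6 months also compares single fish with pools of 2 fish, and reporter lines with no listed transgene. Age cannot be told apart from these in the list counts.

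The hydrolase genes with the smallest p-values in old brain were dnase2b, asah1b and ctsc. The DNase gene dnase2b had 1.62 ± 0.344 CPM in old brain and 0.652 ± 0.0404 CPM at 6 months (SD, n = 10 and 5, log2 fold change 1.3 ± 0.19, SE, edgeR adjusted p = 8.92e-05). The second acid ceramidase gene, asah1b, had 61.3 ± 9.07 CPM in old brain and 41.5 ± 3.32 CPM at 6 months (0.56 ± 0.10, SE, edgeR adjusted p = 0.000549), and ctsc, cathepsin C, had 33.8 ± 6.08 and 21.2 ± 3.78 CPM (0.67 ± 0.13, SE, edgeR adjusted p = 0.0015). Both acid ceramidase genes were thus higher in old brain by like amounts.

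Among membrane proteins tmem175, a potassium channel of the lysosome, mfsd8, which like cln3 is a gene of Batten disease in humans, and clcn7, a chloride exchanger, were higher in old brain by 0.51, 0.28 and 0.19 on the log2 scale. Lower were scarb2, the receptor that carries glucocerebrosidase to the lysosome in mammals, with 30.7 ± 4.6 CPM in old brain and 53.1 ± 2.37 CPM at 6 months (SD, n = 10 and 5, -0.79 ± 0.12, SE, edgeR adjusted p = 8.59e-05), and cln8 (-0.37 ± 0.12, SE, edgeR adjusted p = 0.034). The table holds scarb2 under 2 gene IDs with nearly the same values, so its level is uncertain.

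Genes of the TFEB family and of nutrient sensing by mTORC1, which govern lysosome genes in mammals, gave 4 of 24 higher and 1 lower in old brain, where 8.97% of all genes were called higher and 10.6% lower. The folliculin gene flcn had 45.6 ± 9.69 CPM in old brain and 29.6 ± 1.21 CPM at 6 months (SD, n = 10 and 5, log2 fold change 0.60 ± 0.06, SE, edgeR adjusted p = 2.11e-06), and tfe3a and fnip2 were higher by 0.25 and 0.33, while fnip1 was lower (-0.30 ± 0.07, SE, edgeR adjusted p = 0.00697). Of 34 autophagy genes 7 were higher and 1 lower, among them atg13 (0.23), nbr1 (0.24) and atg5 (0.24) higher and plekhm1 (-0.63) lower.

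In liver 0 of the 128 other lysosome genes were called between old and 6 months by edgeR, with 1 called by DESeq2. In skin 11 were higher in old skin and 7 lower, with 8.59% higher and 5.47% lower, against 7.81% and 7.32% of all genes. The 7 again include scarb2 under 2 gene IDs. These 18 calls became 10 with limma voom and 8 to 18 with each library left out in turn. Higher were acp5a, the tartrate-resistant acid phosphatase, with 17.8 ± 14.3 CPM in old skin and 4.69 ± 1.14 CPM at 6 months (SD, n = 10 and 5, log2 fold change 1.8 ± 0.31, SE, edgeR adjusted p = 0.000699), and ids and idua, which both act on glycosaminoglycans (1.17 and 0.53). Lower were ctsh, cathepsin H, with 34.2 ± 21.7 CPM in old skin and 58.7 ± 17.7 CPM at 6 months (-0.88 ± 0.22, SE, edgeR adjusted p = 0.0114), fuca1, a fucosidase (-0.95 ± 0.27, SE, edgeR adjusted p = 0.0226) and scarb2 (-1.34).

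At 24 months several hydrolases were lower in skin than at 6 months. Of 65 hydrolases and activators 18 (27.7%) were lower at 24 than at 6 months and 6 (9.23%) higher, with a median log2 fold change of -0.26, against 9.49% and 10.7% of all genes. With each library left out in turn, 12 to 18 were lower. Of 25 macrophage markers 3 were lower at 24 months and 1 higher, with sums of 2644 to 4750 CPM (median 3711) at 24 months and 4618 to 5236 CPM (median 4940) at 6 months. The median sum of skeletal muscle markers was 13745 CPM at 24 months and 27406 CPM at 6 months, and the part of either in the hydrolase difference was not tested. The summed level of the 66 hydrolase genes found in skin was 1920 to 2627 CPM at 24 months and 2648 to 3257 CPM at 6 months. Among the 10 genes described here, which the hydrolase list leaves out, hexb was also called lower at 24 than at 6 months. Between 42 and 36 months 8 of 20 v-ATPase genes were higher in skin and 0 lower, where 4.98% of all genes were called higher, and 5 were higher without 42 months replicate 1, the fish with high cathepsins. The summed level of the v-ATPase genes was 1784, 698.5, 757.8, 736.2 and 1021 CPM at 42 months and 554.3, 572.8, 708.7, 699.9 and 722.6 CPM at 36 months, so that 1 library of 42 months overlapped with 36 months and replicate 1 stood far above the rest.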

How the data were processed

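Per the study's methods, libraries were made with TruSeq kits, which as named do not mark strand, and sequenced as single-end reads of HiSeq instruments. The submitters' processing notes name CASAVA 1.8.0, TopHat2 2.0.6 and the build Zv9, and HTSeq with no version (HTSeq or featureCounts per the methods). The authors deposited raw counts, whole numbers of reads assigned to each gene. They also deposited RPKM values, for which they divided the counts by exon length and library size. Reads of overlapping genes or near-identical copies are uncertain.

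Differences were tested 2-sided by the robust quasi-likelihood method of edgeR 4.0.16 (R 4.3.3) after its default filter on low counts and TMM normalisation, with Benjamini-Hochberg adjustment over all genes and a threshold of 0.05, per tissue with age as 5 levels, and over all 73 libraries for tissue pairs and interactions. The SE is the log2 fold change over the root of F. Levels between genes used RPKM, and age comparisons used CPM. Relations between tissues of a fish used 100000 permutations, 2-sided, in SciPy 1.17.1 (Python 3.11.15, pandas 2.3.3, NumPy 2.4.6), and figures matplotlib 3.10.9. The tests were checked on simulated counts. Of 32677 rows, 351 had a blank symbol and were named by gene ID. Every table also held 2 columns of per-sample values that were not used, and the tables of the 2 libraries in no group were not used. Promoter motifs were not analysed here.

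Fish numbers in the sample titles pair libraries of the same fish, with a consensus correlation of 0.125 over genes. The fish as a block was fitted with limma 3.58.1. Alternatives were DESeq2 1.42.0, limma voom, RLE size factors, no filter on low counts, a filter like that of the study but within a tissue, other contrasts and sets of ages, single ages, leaving out each library and leaving out liver libraries above 2000 CPM of intestine markers. Scaling to total counts was added after the data were seen. The 10 genes and all lists were chosen with earlier results of these data known. All 10 genes are named, as are up to 3 called genes per direction, list and tissue by smallest p of old against 6 months. The 5 most similar genes per tissue had the highest r among genes with a symbol and a mean log2 CPM of at least 3. A gene in each of these last 2 sets is not reported here. Genes of single libraries that stood apart (ctsl.1, lgmn) were chosen after their values were seen.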

Additional observations from a re-analysis of the deposited data

Results flagged for a closer look

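In 150 groups of 4 or 5 libraries (10 genes in 15 groups), the highest or lowest library was set apart from its group by Dixon's criterion in 17 cases, 12 high and 5 low, with 3 in brain, 8 in liver and 6 in skin. Chance sets apart about 1 group in 20. Explanations were not tested.

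The fish of 42 months replicate 1 gave 6 of them. In skin it had 545 CPM of ctsba (others 196 to 284), 307 CPM of ctsd (91.5 to 136.7), 15.9 CPM of gba (8.59 to 9.52) and 97.7 CPM of hexb (54.4 to 61.3). In liver it had 324 CPM of ctsba (others at most 159) and 306 CPM of ctsd (at most 153). Its neutrophil markers were also the highest of the 5 in both tissues, at 1589 CPM in skin and 700 CPM in liver.

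Liver 12 months replicate 2 had 334 CPM of lamp2 (others 116.2 to 151.1) and 84.2 CPM of tpp1 (37.9 to 39.5). Among the other liver libraries, hexa was at 22.2 CPM in 6 months replicate 2 (others 8.01 to 10.3) and at 19 CPM in 42 months replicate 3 (7.26 to 9.87), both rich in intestine markers. In liver cln3 was at 15.3 CPM in 42 months replicate 4 (others 10.8 to 11.5) and asah1a at 2.54 CPM in 24 months replicate 2 (3.37 to 3.69).

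In brain the set-apart values were 9.62 CPM of cln3 in 6 months replicate 5 (others 11.3 to 11.7), 82.9 CPM of npc1 in 36 months replicate 1 (69 to 70.6) and 9.06 CPM of tpp1 in 36 months replicate 4 (11.4 to 12.2). In skin ctsba was at 143 CPM in 12 months replicate 4 (others 224 to 252) and asah1a at 6.14 CPM in 24 months replicate 3 (8.99 to 9.84).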

How the results depend on the processing

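The lowest raw count of the 10 genes was 57, for asah1a in a liver library. In old brain against 6 months 6 of the 10 genes were called, against 3 with 42 months alone, 1 (gba, which is not among the 6) with old against 12 months and 1 with a straight line over age. Of all 23028 genes tested, 4507 were called in old brain, against 1997, 2454 and 1148 in the same alternatives. Asah1a turned to -0.03 in old against 12 months. Total counts left 1 of 2 genes called in brain at 24 over 6 months, and no filter left 2 of 4 at 42 over 36 months. Over all genes total counts gave 2899 calls, against 3198 of 23028. No filter gave 4786 of 30671, against 5242 of 23028. In skin, old against 6 months gave 1 called gene, against 0 with 42 months alone, 2 against 12 months and 0 with only 6, 36 and 42 months fitted. Over all genes these gave 3392 calls of 22429, against 1809, 5833 and, of 21881 genes, 2363. Skin at 42 over 12 months gave 0, against 2 with DESeq2, 1 with RLE factors and 2 with total counts, and at 42 over 36 months 1, against 0 with limma voom and 2 with total counts. Of all 22429 genes, 2840 were called at 42 over 12 months, against 3771, 2835 and 3767. At 42 over 36 months 2249 were called, against 1909 and 2674. Of other lysosome genes 18 were called in old skin, against 10 with limma voom, and 0 in old liver, against 1 with DESeq2. For all genes tested, limma voom called 3138 in old skin, against 3392 with edgeR, and DESeq2 called 680 in old liver, against 40.

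Brain against skin gave 8 called genes, against 3, 4, 4 and 5 at 12, 24, 36 and 6 months alone, and liver against skin 9, against 5 at 42 and 5 at 6 months alone. Of all 25360 genes tested, brain against skin gave 21158 calls, against 16855, 16956, 16901 and 17011 at those ages alone. Liver against skin gave 18651 calls, against 12673 at 42 and 13363 at 6 months alone. Among genes called in the mean over ages, at single ages asah1a turned to 0.14 (36 months) and cln3 to -0.05 (6 months) in brain against skin. Without the liver libraries rich in intestine RNA the interactions gave 2 genes for brain minus liver and 3 for liver minus skin, in place of 0. In that setting hexb in liver against skin turned to -0.07, in a mean that also leaves out 12 months. With total counts the tissue differences turned for brain against liver in asah1a (1.3), cln3 (0.69), gba (0.27), hexa (0.09) and lamp2 (0.18), for brain against skin in asah1a (0.09), hexa (0.22) and ctsd (0.40), and for liver against skin in cln3 (-0.01), ctsba (-0.56), lamp2 (-0.70) and tpp1 (-0.33). Apart from the scalings, fewer samples or other ages, the causes were not tested.

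Leaving out 1 library at a time gave 4 to 7 called genes in old brain, 1 to 3 at 24 over 6 months and 1 to 5 at 42 over 36 months, with 26 to 37 other lysosome genes in old brain. In skin it gave 0 to 1 in old, 1 to 2 at 24 over 6 months, 0 to 2 at 42 over 12 months and 0 to 1 at 42 over 36 months, with 8 to 18 other lysosome genes in old skin. In liver and in the interactions it gave 0 to 0. The calls of cln3, asah1a, ctsba and lamp2 in old brain held in all 15 of these, with adjusted p-values up to 1.56e-05, 0.000138, 0.0484 and 0.0133. The fish as a replicate block, fitted with limma voom, moved 1 call, asah1a in liver against skin (-0.30, adjusted p = 0.0127), which limma voom also called without the block (-0.31, adjusted p = 0.0136), and no other call of the 10 genes.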

Other observations

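A few genes of nutrient sensing and autophagy were called in skin between old and 6 months, at shares near those of all genes. The folliculin gene flcn, which was higher in old brain, was at 21.3 ± 3.77 CPM in old skin and 14.6 ± 1.49 CPM at 6 months (SD, n = 10 and 5, log2 fold change 0.55 ± 0.14, SE, edgeR adjusted p = 0.0123). Its partner gene fnip2 was higher by 1.03 ± 0.31 (SE, edgeR adjusted p = 0.0277), and rragd, a Rag GTPase gene, was lower (-0.55 ± 0.16, SE, edgeR adjusted p = 0.0198). Where 7.81% of all genes were called higher and 7.32% lower, 2 of 24 genes of this list were higher and 1 lower in old skin, and of 35 autophagy genes 2 were higher, pik3r4 (0.27) and ulk1b (0.61), and 2 lower, atg10 (-0.50) and atg16l1 (-0.22). With each skin library of these ages left out in turn, 1 to 2 genes of the first list and 0 to 2 of the autophagy list were higher.

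Of 20 v-ATPase genes tested in skin, atp6v1c1b (0.73 ± 0.21, SE, edgeR adjusted p = 0.0234) and atp6v1ab (0.70 ± 0.23, SE, edgeR adjusted p = 0.0454) were higher in old skin than at 6 months, where 7.81% of all genes were called higher. Neither was called without 6 months replicate 2, 3, 4 or 5. The membrane list held grn1 (2.49 ± 0.75, SE, edgeR adjusted p = 0.0277), a granulin gene, which was higher in old skin, and slc29a3 (-1.05), a nucleoside transporter gene, which was lower. The grn1 level was 51.8 ± 113.3 CPM in old skin and 4.33 ± 0.365 CPM at 6 months (SD, n = 10 and 5), with an SD above the mean in old skin.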
